A study of Homo sapiens with 12 samples.

Results

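The 9 genes described here encode BET bromodomain proteins (BRD2, BRD3), the kinase complex P-TEFb (CDK9, CCNT1, CCNT2) and its inhibitory ribonucleoprotein (HEXIM1, HEXIM2, LARP7, MEPCE). They were taken by symbol from the deposited table of counts, and all 9 were found among its 56609 symbols and passed the filter on low counts, as did 21698 genes in all. The RNA came from A375, an established human melanoma cell line. Cells were either wild type or carried a CRISPR/Cas9 knockout of MAPKAPK2, which encodes the stress kinase MK2. Each genotype was kept for 48 h with either 500 nM JQ1, a small molecule that displaces BET bromodomains from acetylated chromatin, or its solvent DMSO, giving 4 groups of 3 replicates and 12 libraries. Whether the knockout cells were 1 clone or a pool is not given in the sources used here, and neither is whether the replicates were separate cultures, so p-values measure the spread between these samples, which may be technical.

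P-TEFb releases paused RNA polymerase II by phosphorylating the polymerase and the factors that hold it near the promoter. Part of the cell's P-TEFb is kept inactive in a particle built on the noncoding RNA 7SK, in which MEPCE caps the RNA, LARP7 binds its tail, and a HEXIM protein inhibits the kinase. BET proteins bind acetylated histones and are linked to P-TEFb recruitment, and HEXIM1 is widely used as a transcript that responds to BET inhibitors.

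The libraries held 25316899 to 34594295 estimated counts. Levels are given below as counts per 1000000 counts (CPM) after scaling by edgeR's trimmed mean of M-values. MAPKAPK2 averaged 89.6 CPM in wild-type DMSO cells and lay between 11.1 and 15.7 CPM in the 6 knockout libraries, which fits their labels. Of the melanocyte markers, SOX10 averaged 500.2 CPM over all libraries and MITF 35.4 CPM, while the pigment genes PMEL, MLANA and TYR averaged 0.780, 0.737 and 0.0592 CPM. The sum of the melanocyte lineage markers, made up mostly of SOX10, was higher with JQ1. It was 559.6 to 765.6 CPM with JQ1 against 459.4 to 534.4 CPM in the DMSO libraries. Changes of single markers are not given here, and the part of these markers in the results was not tested. Markers of keratinocytes, epithelium, leukocytes and endothelium averaged at most 1.02 CPM (KRT14), and CDH1 was at 0 in every library. One library stood apart. The chi-square per degree of freedom between knockout JQ1 replicate 3 and its fellow replicates was 23.8 and 25.1, against 3.21 to 7.05 for the 10 other pairs of replicates, so the knockout responses of the members it touches, and the counts and ratios for knockout cells with JQ1, are also given without it.

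JQ1 raised HEXIM1, CDK9, BRD2 and MEPCE in both genotypes, whereas CCNT1, CCNT2 and BRD3 did not pass this test in either. HEXIM1 rose by about 1.7 times, CDK9 by about 1.4 times, and BRD2 and MEPCE by less. The second HEXIM gene, HEXIM2, was lower after JQ1 and passed the test in knockout cells. At an adjusted p under 0.05 in edgeR's quasi-likelihood test, 4 of the 9 members were called in wild-type cells, all higher, where 33.1% of all tested genes were called (16.9% higher, 16.2% lower). In knockout cells 5 of 9 were called, 4 higher and 1 lower, against 34.4% of all genes (16.7% higher, 17.8% lower). With so many genes responding, these counts stand near the background, and the members differ from one another in direction and size. Scaling by library totals alone, without the trimmed mean, would lower the share of rises, from 3665 higher and 3522 lower genes to 2298 and 5368 in wild-type and from 3616 and 3856 to 2409 and 5250 in knockout cells, because it moves the median gene by -0.13 and -0.12 on the log2 scale. Under it HEXIM1 and CDK9 stayed called in both genotypes, BRD2 in wild-type (edgeR adjusted p = 0.245) and MEPCE in either (edgeR adjusted p = 0.270 and 0.226) did not pass, and more members passed as lower. In wild-type cells these were HEXIM2 (-0.37, edgeR adjusted p = 0.0201), CCNT1 (-0.26, edgeR adjusted p = 0.0372) and BRD3 (-0.22, edgeR adjusted p = 0.0344), so that 2 members were called higher and 3 lower. In knockout cells LARP7 (-0.50, edgeR adjusted p = 0.0240) joined HEXIM2, with 3 called higher and 2 lower. Relative to the median gene, each member's value was nearly as before. The median log2 fold change of the 9 members was 0.02 in wild-type and 0.05 in knockout cells, beside -0.03 and -0.004 for all tested genes.

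**Figure D1:**
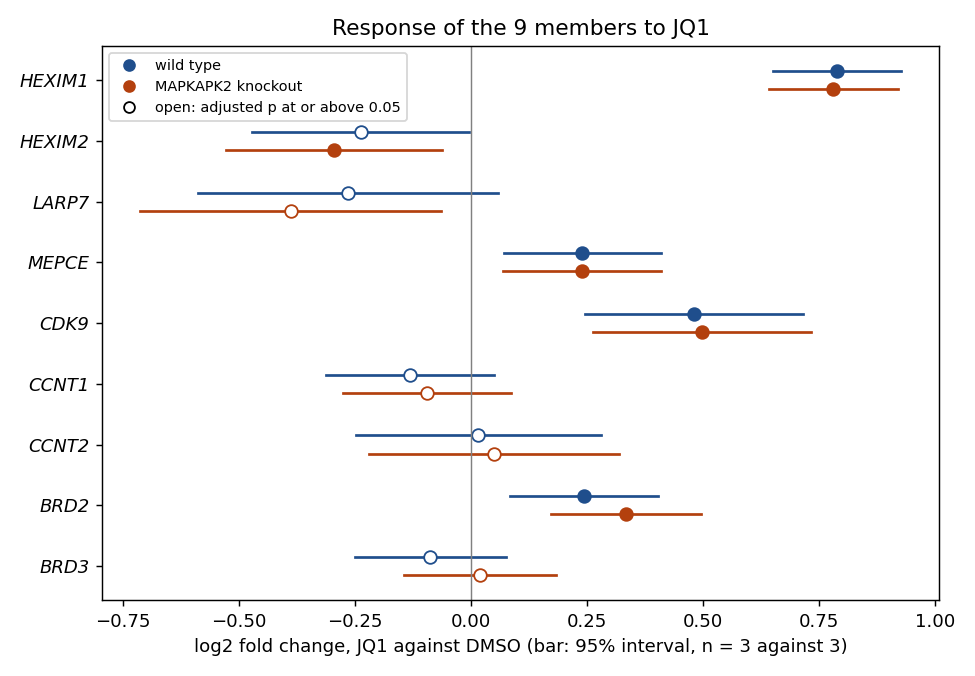
Log2 fold change of each member with JQ1 against DMSO (x axis), with its 95% interval, in wild-type and MAPKAPK2 knockout cells (3 against 3 libraries each). HEXIM1 lies farthest to the right in both genotypes, at 0.79 and 0.78, and the intervals of both genotypes overlap for every member.

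HEXIM1 and HEXIM2 are neighbours on chromosome 17. In the GENCODE 29 annotation (GRCh38), HEXIM1 is a single-exon gene of 3600 bases at chr17:45148502-45152101, and HEXIM2 follows on the same strand at chr17:45160700-45170040, after a gap of 8598 bases. Because these neighbouring paralogs gave fold changes of opposite sign, although that of HEXIM2 passed the test only in knockout cells, a RefSeq promoter window of each (GRCh38.p14, plus strand, 250 bases before to 50 after a start) is shown, with those of CDK9 and BRD2, the other members with the largest called rises. The 9 members have 17 such windows, and for genes with several, the second of HEXIM2, which lies inside the annotated gene, and the first of BRD2 are shown. Capitals mark matches, on either strand, to any of 6 motifs, the TATA box (TATAAA), the CCAAT box (CCAAT), the Sp1 box (GGGCGG), the E-box (CACGTG), the cAMP response element (TGACGTCA) and an ETS site (CCGGAAG).
HEXIM1, chr17:45148225-45148524: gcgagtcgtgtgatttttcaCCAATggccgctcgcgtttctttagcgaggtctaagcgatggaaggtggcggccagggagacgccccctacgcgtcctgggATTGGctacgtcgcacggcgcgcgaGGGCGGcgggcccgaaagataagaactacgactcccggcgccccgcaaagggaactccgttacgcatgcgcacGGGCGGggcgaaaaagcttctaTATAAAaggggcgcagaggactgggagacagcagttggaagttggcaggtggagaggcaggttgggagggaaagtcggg
HEXIM2, chr17:45161625-45161924: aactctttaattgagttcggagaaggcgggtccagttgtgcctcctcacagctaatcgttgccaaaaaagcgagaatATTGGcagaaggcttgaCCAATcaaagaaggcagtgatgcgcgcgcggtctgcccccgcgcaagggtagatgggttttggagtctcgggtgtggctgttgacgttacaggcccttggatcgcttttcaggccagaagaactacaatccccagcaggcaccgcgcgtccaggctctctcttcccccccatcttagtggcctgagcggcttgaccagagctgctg
CDK9, chr9:127785784-127786083: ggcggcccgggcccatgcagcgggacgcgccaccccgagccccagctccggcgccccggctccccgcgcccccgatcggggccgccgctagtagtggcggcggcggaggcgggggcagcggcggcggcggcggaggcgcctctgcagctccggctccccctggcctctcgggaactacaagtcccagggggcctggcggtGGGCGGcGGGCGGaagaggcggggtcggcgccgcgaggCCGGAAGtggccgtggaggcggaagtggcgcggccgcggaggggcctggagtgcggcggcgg
BRD2, chr6:32968344-32968643: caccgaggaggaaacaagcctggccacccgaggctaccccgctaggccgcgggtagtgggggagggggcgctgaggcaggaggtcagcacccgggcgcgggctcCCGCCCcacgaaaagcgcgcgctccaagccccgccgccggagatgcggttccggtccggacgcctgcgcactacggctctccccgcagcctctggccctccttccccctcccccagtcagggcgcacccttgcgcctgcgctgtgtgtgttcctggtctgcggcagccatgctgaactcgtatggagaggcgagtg

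HEXIM1 was the only member with TATAAA in a window, at position -29 from the start, a motif found in 11.5% of the 35116 promoter windows. Its window also held CCAAT at -230 and, on the minus strand, at -149, and GGGCGG at -124 and -51. The HEXIM2 window shown had no match to TATAAA or GGGCGG and held CCAAT at -156 and, on the minus strand, at -173. In the CDK9 window, GGGCGG stood at -50 and -43 and CCGGAAG at -12, while the first BRD2 window held only GGGCGG, on the minus strand at -146. Of the other BRD2 windows, the second held GGGCGG at -241 and the fourth at -116. GGGCGG occurred in 45.0% of all windows, CCAAT in 34.6%, CCGGAAG in 10.3%, CACGTG in 7.26% and TGACGTCA in 1.85%. In the windows shown, G and C made up 82.0% for CDK9, 71.7% for BRD2 and 62.0% for HEXIM1, above the median of 58.7% over all windows. The HEXIM2 window shown held 56.3%, below the median. These values depend on the window, as the other BRD2 windows held 64.3%, 50.3% and 66.0%. The first HEXIM2 window held 35.3%. A match describes letters only and does not show that a factor binds there.

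HEXIM1, which encodes the main inhibitor of P-TEFb in the 7SK particle, had the largest response of the 9 genes. In wild-type cells it measured 92.6, 89.1 and 92.8 CPM in DMSO and 164.9, 156.9 and 152.5 CPM with JQ1. In knockout cells it measured 89.1, 91.2 and 95.1 CPM in DMSO and 152.6, 146.8 and 173.8 CPM with JQ1. Every JQ1 library lay above every DMSO library, with a wide gap between them and a narrow spread within each group. The log2 fold change was 0.79 (SE 0.06, edgeR adjusted p = 4.11e-07) in wild-type and 0.78 (SE 0.06, edgeR adjusted p = 3.92e-07) in knockout cells, or 1.73-fold and 1.72-fold. Without knockout JQ1 replicate 3, the highest of the HEXIM1 values, the knockout value was 0.71 (edgeR adjusted p = 4.81e-08). Of 11251 genes averaging 5 CPM or more, 2.86% rose by a larger fold in wild-type and 3.27% in knockout cells.

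HEXIM2, a paralog that can also inhibit P-TEFb, was expressed at a much lower level. Wild-type DMSO libraries held 6.50, 7.65 and 5.88 CPM of HEXIM2 and JQ1 libraries 5.75, 5.75 and 5.44 CPM. Knockout DMSO libraries held 7.44, 7.97 and 7.97 CPM and JQ1 libraries 6.32, 6.53 and 6.21 CPM. All JQ1 values lay below all DMSO values of the same genotype, although in wild type the gap was narrow. HEXIM2 fell by 0.29 on the log2 scale in knockout cells (SE 0.11, edgeR adjusted p = 0.0492). In wild-type cells its log2 fold change was -0.24 (SE 0.11), which did not pass (edgeR adjusted p = 0.113). The knockout call was just inside the threshold and was lost without any 1 of the 6 knockout libraries (edgeR adjusted p = 0.0657 to 0.124) and with DESeq2 (adjusted p = 0.0785). Without knockout JQ1 replicate 3, the knockout value was -0.28 (edgeR adjusted p = 0.105). A gene on the opposite strand, AC138150.2, overlaps HEXIM2 by 1241 bases, held a mean of 30.8 counts against 198.7 for HEXIM2, and was itself lower with JQ1, by log2 fold changes of -1.51 (edgeR adjusted p = 0.00119) and -1.74 (edgeR adjusted p = 0.000636). The overlap is of whole genes, introns included, and how much of it lies in exons was not measured. Whether counting used strand is not given in the sources used here. Reads from any exon sequence shared by both genes may therefore not be told apart.

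Within single libraries, the balance of both inhibitors moved toward HEXIM1. Wild-type libraries held 14.2, 11.6 and 15.8 HEXIM1 counts per HEXIM2 count in DMSO and 28.7, 27.4 and 28.1 with JQ1. Knockout libraries held 12, 11.5 and 11.9 in DMSO and 24.1, 22.5 and 28.03 with JQ1. This ratio, which does not depend on the scaling of a library, was thus 2.04 times higher with JQ1 in wild-type and 2.10 times higher in knockout cells (1.98 times without replicate 3), without overlap. Such changes are taken between means of log2 ratios throughout, and ratios are described without a test.

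LARP7 and MEPCE, the core proteins that hold 7SK RNA, tended apart. LARP7, which binds the end of the RNA and protects it, measured 33.0, 33.4 and 27.6 CPM in wild-type DMSO and 24.4, 25.9 and 27.9 CPM in wild-type JQ1 libraries. In knockout cells LARP7 measured 38.2, 35.4 and 31.8 CPM in DMSO and 32.7, 29.3 and 18.9 CPM with JQ1. The groups overlapped in both genotypes, and the lowest of the 12 values was that of knockout JQ1 replicate 3. LARP7 did not pass the test, with log2 fold changes of -0.27 (SE 0.15, edgeR adjusted p = 0.202) in wild-type and -0.39 (edgeR adjusted p = 0.0618) in knockout cells, the latter -0.18 (edgeR adjusted p = 0.186) without replicate 3. It passed in knockout cells under 5 of 21 alternatives, among them DESeq2 (adjusted p = 0.0474), library totals (edgeR adjusted p = 0.0240), no filter on low counts (edgeR adjusted p = 0.00115) and leaving out knockout JQ1 replicate 1 (edgeR adjusted p = 0.0123). In wild-type cells it passed with only the groups compared (edgeR adjusted p = 0.0264) and with knockout JQ1 replicate 3 left out of the shared estimate of spread (edgeR adjusted p = 0.0277). LARP7 (chr4:112636964-112657592, plus strand) overlaps ZGRF1 on the opposite strand by 32 bases. ZGRF1 had log2 fold changes with JQ1 of -0.26 (edgeR adjusted p = 0.195) in wild-type and -0.65 (edgeR adjusted p = 0.00312) in knockout cells.

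MEPCE (chr7:100428790-100434126, plus strand), the enzyme that caps 7SK RNA, was higher with JQ1. It measured 72.0, 70.3 and 72.4 CPM in wild-type DMSO and 88.4, 87.1 and 78.2 CPM in wild-type JQ1 libraries. Knockout libraries held 64.6, 70.4 and 70.7 CPM in DMSO and 73.0, 77.9 and 91.7 CPM with JQ1. No JQ1 library fell as low as any DMSO library of its genotype, and knockout JQ1 replicate 3 was the highest of all. MEPCE rose by a log2 fold change of 0.24 (SE 0.08) in wild-type (edgeR adjusted p = 0.0300) and by the same 0.24 in knockout cells (edgeR adjusted p = 0.0297). Both calls were fragile. The wild-type call was lost without any 1 of wild-type DMSO replicates 1, 2 and 3 or JQ1 replicates 1 and 2 (edgeR adjusted p = 0.0575 to 0.111). The knockout call was lost without knockout DMSO replicate 1 (edgeR adjusted p = 0.106), DMSO replicate 2 (edgeR adjusted p = 0.0517) or JQ1 replicate 3, where MEPCE stood at 0.14 (edgeR adjusted p = 0.105).

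The counts of LARP7 per MEPCE count were lower with JQ1 in every library of a genotype than in any of its DMSO libraries. They stood at 0.458, 0.476 and 0.382 in wild-type DMSO and 0.276, 0.297 and 0.357 in wild-type JQ1 libraries. Knockout libraries gave 0.591, 0.503 and 0.449 in DMSO and 0.447, 0.376 and 0.206 with JQ1, where replicate 3 was again the lowest. On the mean log2 scale, the ratio with JQ1 was 0.706 times that in DMSO in wild-type and 0.638 times in knockout cells, the latter 0.802 times without replicate 3. RN7SK, the 7SK RNA itself, held 33170 to 33340 CPM in wild-type DMSO and 35790 to 38920 CPM in wild-type JQ1 libraries, and 34530 to 37670 CPM against 36570 to 45570 CPM in knockout cells. RN7SK rose by a log2 fold change of 0.18 (edgeR adjusted p = 0.0448) in wild-type cells and stood at 0.17 (edgeR adjusted p = 0.0561) in knockout cells, or 0.09 (edgeR adjusted p = 0.229) without replicate 3.

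CDK9 (chr9:127785679-127790787, plus strand), the catalytic subunit of P-TEFb, was the second most responsive member. Wild-type libraries held 30.7, 27.8 and 29.6 CPM of CDK9 in DMSO and 43.5, 40.8 and 38.8 CPM with JQ1. Knockout libraries held 27.9, 31.1 and 34.1 CPM in DMSO and 39.6, 38.6 and 52.9 CPM with JQ1. The groups did not overlap in either genotype, and knockout JQ1 replicate 3 was the highest. CDK9 rose by log2 fold changes of 0.48 (SE 0.11, edgeR adjusted p = 0.00347) in wild-type and 0.50 (SE 0.11, edgeR adjusted p = 0.00257) in knockout cells. It stayed called in knockout cells without replicate 3, at 0.34 (edgeR adjusted p = 0.00437).

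The cyclins that activate CDK9, CCNT1 (chr12:48688458-48716998, minus strand) and CCNT2 (chr2:134918235-134959342, plus strand), did not pass the test. CCNT1, the more abundant of them, measured 161.5, 157.7 and 165.4 CPM in wild-type DMSO and 146.8, 147.6 and 148.1 CPM in wild-type JQ1 libraries. Knockout libraries gave 166.1, 143.0 and 155.2 CPM of CCNT1 in DMSO and 159.2, 154.4 and 121.6 CPM with JQ1. In wild-type cells the JQ1 libraries lay just below the DMSO libraries, while in knockout cells they overlapped and replicate 3 was the lowest. The log2 fold changes of CCNT1 were -0.13 (SE 0.08, edgeR adjusted p = 0.262) and -0.09 (edgeR adjusted p = 0.433). Without replicate 3, the knockout value changed sign, to 0.02 (edgeR adjusted p = 0.832). The wild-type value passed with only the groups compared, at -0.11 (edgeR adjusted p = 0.0350), as it did with library totals. The authors' normalized table scaled CCNT1 differently between libraries, with a factor, relative to the library's median, that differed 1.47-fold between its extremes. A spread wider than this occurred in 6.41% of tested genes, and the same quantity was 1.01 for HEXIM1 and CDK9.

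CCNT2 measured 19.9, 22.0 and 19.3 CPM in wild-type DMSO and 19.0, 19.3 and 23.5 CPM in wild-type JQ1 libraries. In knockout cells it held 18.0, 17.8 and 17.7 CPM in DMSO and 22.3, 18.4 and 14.9 CPM with JQ1. DMSO and JQ1 values of CCNT2 were interleaved in both genotypes. Its log2 fold changes were 0.02 (95% interval -0.25 to 0.28) in wild-type and 0.05 (95% interval -0.22 to 0.32) in knockout cells. These intervals leave room for a modest change in either direction. Without knockout JQ1 replicate 3, the knockout value of CCNT2 was 0.19 (edgeR adjusted p = 0.190). HEXIM1 counts per CDK9 count, the inhibitor against the kinase, were 3.01, 3.20 and 3.14 in wild-type DMSO and 3.79, 3.84 and 3.93 in wild-type JQ1 libraries. They were 3.19, 2.93 and 2.79 against 3.85, 3.802 and 3.29 in knockout cells, or 1.24 times higher with JQ1 in wild-type and 1.23 times higher in knockout cells (1.29 times without replicate 3). CCNT1 counts per CCNT2 count overlapped between treatments.

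Of the BET genes, BRD2 (chr6:32968660-32981505, plus strand) was called and BRD3 (chr9:134030305-134068535, minus strand) was not. BRD2, a reader of acetylated histones, measured 45.1, 42.7 and 45.3 CPM in wild-type DMSO and 53.8, 52.4 and 51.7 CPM in wild-type JQ1 libraries. Knockout libraries held 36.4, 44.4 and 40.8 CPM of BRD2 in DMSO and 48.6, 49.4 and 55.1 CPM with JQ1. All JQ1 libraries lay above the DMSO libraries of their genotype. BRD2 rose by log2 fold changes of 0.24 (SE 0.07, edgeR adjusted p = 0.0204) in wild-type and 0.33 (SE 0.08, edgeR adjusted p = 0.00296) in knockout cells. The knockout call held without replicate 3, at 0.28 (edgeR adjusted p = 0.00715). The wild-type call was lost without wild-type DMSO replicate 2 (edgeR adjusted p = 0.0743), JQ1 replicate 1 (edgeR adjusted p = 0.0691) or JQ1 replicate 2 (edgeR adjusted p = 0.0515). HLA-DMA, a class II antigen-loading gene, overlaps BRD2 by 435 bases on the opposite strand, measured over whole genes with introns. HLA-DMA was also higher with JQ1, by log2 fold changes of 0.32 (edgeR adjusted p = 0.000804) and 0.47 (edgeR adjusted p = 2.3e-05). Reads from any exon sequence shared by this pair cannot be told apart without the strand, and the extent of such sequence was not measured.

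BRD3, the related BET gene, measured 53.7, 54.5 and 55.8 CPM in wild-type DMSO and 53.8, 50.7 and 49.8 CPM in wild-type JQ1 libraries. It measured 51.8, 56.7 and 56.7 CPM in knockout DMSO and 49.6, 55.4 and 62.2 CPM in knockout JQ1 libraries. The groups overlapped, and the log2 fold changes were -0.09 (95% interval -0.25 to 0.08) and 0.02 (95% interval -0.14 to 0.18). Without knockout JQ1 replicate 3, the knockout value changed sign, to -0.07 (edgeR adjusted p = 0.484). On the opposite strand, BRD3OS overlaps BRD3 by 4362 bases and AL445931.1 by 4516 bases, introns included. Counts of BRD2 per BRD3 count stood at 0.840, 0.785 and 0.812 in wild-type DMSO and 1.00, 1.03 and 1.04 in wild-type JQ1 libraries. In knockout cells they stood at 0.704, 0.783 and 0.719 in DMSO and 0.980, 0.892 and 0.885 with JQ1. On the mean log2 scale the ratio was 1.26 times higher with JQ1 in wild-type and 1.25 times higher in knockout cells (1.27 times without replicate 3). BRDT, the BET gene of the testis, had 4 estimated counts over all 12 libraries and was not tested.

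**Figure D2:**
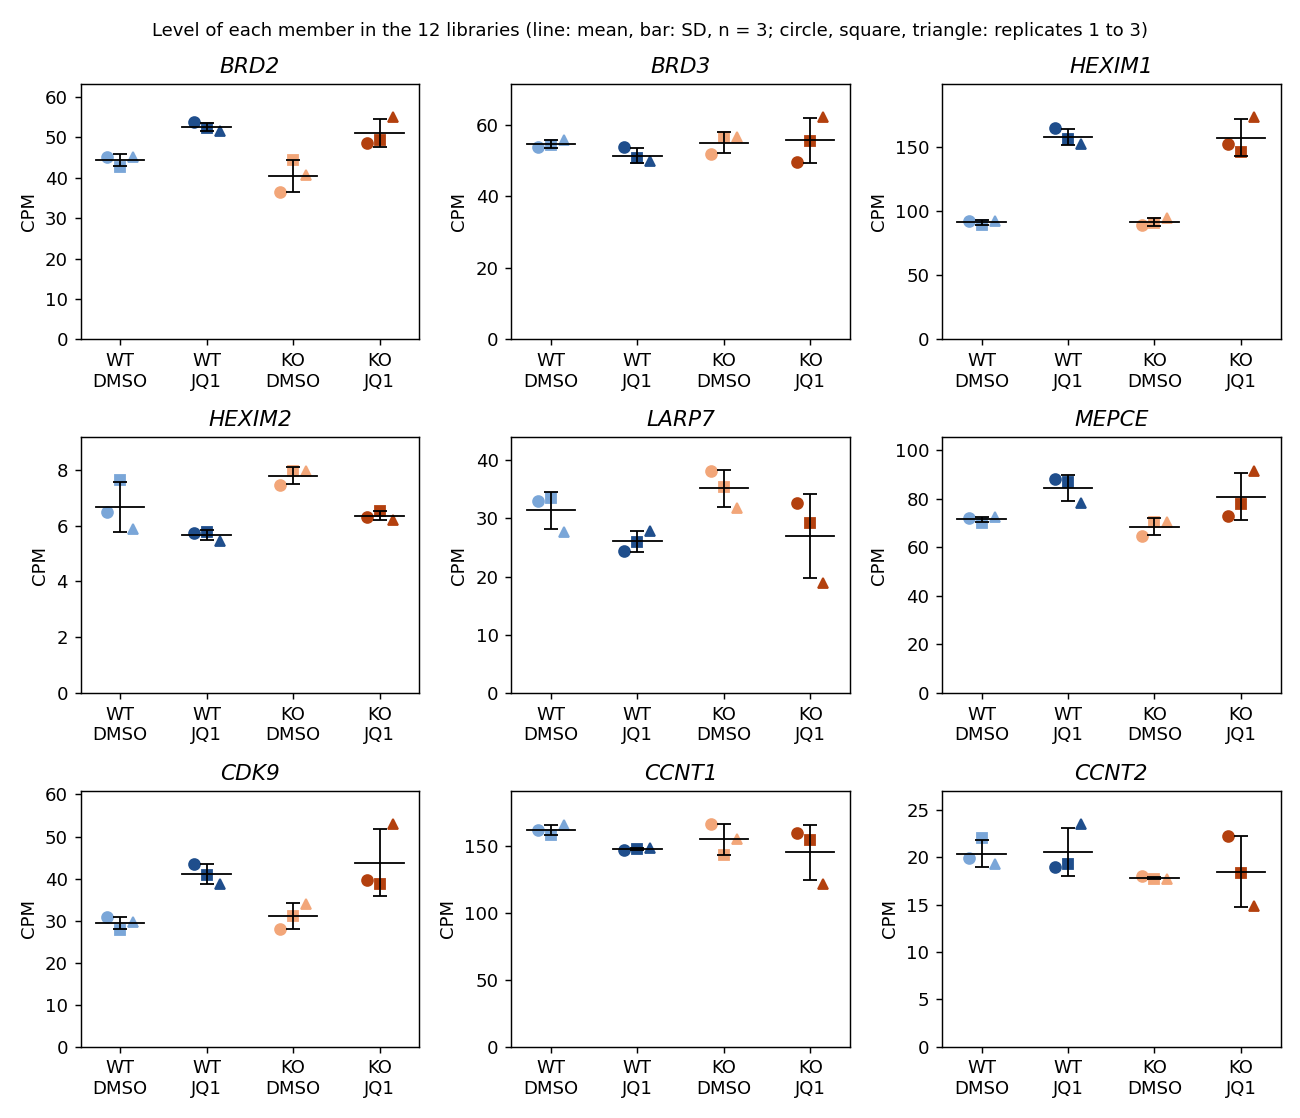
CPM of the 9 members (y axis, from 0) in wild-type (WT) and MAPKAPK2 knockout (KO) cells with DMSO or JQ1; points are replicates, lines means and bars SD (n = 3). The HEXIM1 mean rises from 91.5 to 158.1 CPM in wild-type cells. In the knockout JQ1 group, replicate 3 is the highest or the lowest for every member. It is the highest for HEXIM1, MEPCE, CDK9, BRD2 and BRD3 and the lowest for HEXIM2, LARP7, CCNT1 and CCNT2.

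**Figure D3:**
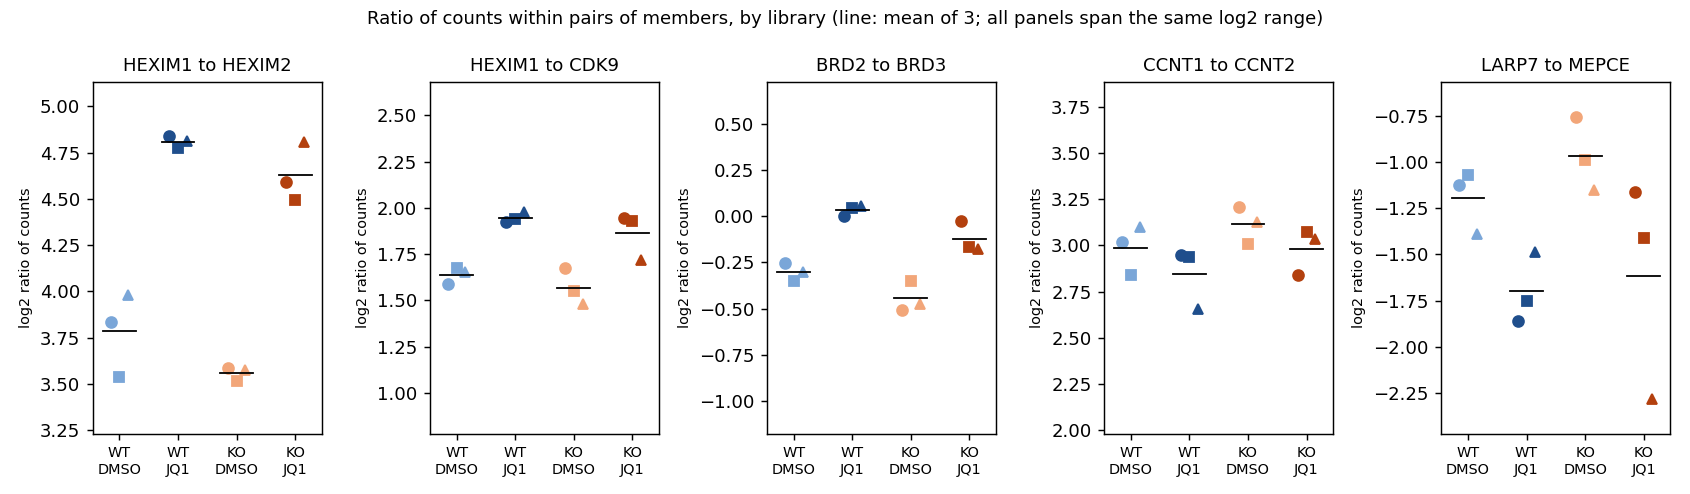
Log2 ratio of counts between pairs of members in each library (y axis, panels of equal span), by group, with the mean of 3. The pairs HEXIM1 to HEXIM2, HEXIM1 to CDK9 and BRD2 to BRD3 are higher with JQ1, LARP7 to MEPCE is lower, and CCNT1 to CCNT2 overlaps.

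In wild-type cells, JQ1 and DMSO values did not overlap for 6 of the 9 members, which compares with 50.4% of all tested genes. In knockout cells this held for 5 of 9, against 42.3%. A contrast averaging both genotypes, chosen after the values were seen, called 6 of 9 members, 4 higher and 2 lower, where 45.7% of all genes were called (22.4% higher, 23.4% lower). It gave log2 fold changes of 0.79 for HEXIM1 (edgeR adjusted p = 3.93e-09), 0.49 for CDK9 (edgeR adjusted p = 0.000106), 0.29 for BRD2 (edgeR adjusted p = 0.000378) and 0.24 for MEPCE (edgeR adjusted p = 0.00259). The calls for lower levels were HEXIM2 at -0.27 (edgeR adjusted p = 0.0108) and LARP7 at -0.33 (edgeR adjusted p = 0.0215). LARP7 lost this call without any 1 of knockout DMSO replicate 1, wild-type DMSO replicates 1 and 2 or wild-type JQ1 replicate 1 (edgeR adjusted p = 0.0544 to 0.0577), and kept it without knockout JQ1 replicate 3 (edgeR adjusted p = 0.0119). With library totals, this contrast also called CCNT1 (-0.23, edgeR adjusted p = 0.00749) and BRD3 (-0.16, edgeR adjusted p = 0.0230) lower and no longer MEPCE (edgeR adjusted p = 0.0814). Averaging shares its libraries with both genotype-specific contrasts and is no independent evidence.

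No member passed the test between MAPKAPK2 knockout and wild-type cells. In DMSO, 0 of the 9 members were called between knockout and wild type by edgeR, and none had an unadjusted p under 0.05, where 7.92% of all tested genes were called. With JQ1 the count was again 0 of 9, against 8.57% of all genes. DESeq2 also called 0 members in both comparisons. HEXIM1 in particular differed by a log2 fold change of 0.01 (95% interval -0.13 to 0.14) in DMSO, with means of 91.8 and 91.5 CPM, and by -0.0029 (95% interval -0.14 to 0.13) with JQ1. The largest difference in DMSO was that of HEXIM2, at 0.23 (SE 0.11, edgeR adjusted p = 0.264), followed by CCNT2 at -0.19 (edgeR adjusted p = 0.439). With JQ1, HEXIM2 again had the largest difference, 0.17 (edgeR adjusted p = 0.440). Within each treatment, the untested ratio of BRD2 to BRD3 counts was lower in every knockout library than in every wild-type library. It stood at 0.905 times in DMSO and 0.898 times with JQ1. In DMSO the gap was narrow, with a highest knockout value of 0.783 and a lowest wild-type value of 0.785. No share of genes without overlap between genotypes is given to compare this with.

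The size of the JQ1 response was compared between genotypes by an interaction term. It called 0 of the 9 members with edgeR and with DESeq2, none at an unadjusted p under 0.05, where 0.134% of all genes were called. For HEXIM1 the response differed by -0.01 on the log2 scale (95% interval -0.20 to 0.19). The intervals for CDK9 (-0.32 to 0.35), BRD2 (-0.14 to 0.32), BRD3 (-0.12 to 0.34) and MEPCE (-0.24 to 0.24) allow somewhat larger differences, and that of LARP7 (-0.58 to 0.33) is the widest. These contrasts use the same libraries as the JQ1 comparisons.

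Levels per length, in CPM per kilobase of the union of exons, allowed the members to be ordered. In wild-type DMSO cells HEXIM1 (25.4), CCNT1 (22.8) and MEPCE (22.0) stood highest, and the ranges of CCNT1 and MEPCE nearly met. CDK9 (11.9) and LARP7 (11.8) followed and did not differ beyond their spread, then BRD3 (8.91) and BRD2 (8.01). HEXIM2 (4.01 ± 0.539, SD, n = 3) and CCNT2 (2.95 ± 0.205) stood lowest. These top 3 and bottom 2 were the same with the longest or the mean transcript length, whereas the order within the top 3 was not. With JQ1, HEXIM1 was first in wild-type cells under each of these lengths.

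Across the 12 libraries, the genes whose centred log2 CPM profile lay nearest to that of HEXIM1 were ESYT1, PYGB, ALKBH5, PKM and TBCB. Their root mean square differences from HEXIM1 were 0.0393 to 0.0585, against a median of 0.401 over 11250 genes. Among the members CDK9 was nearest, at 0.170 (rank 618), followed by BRD2 at 0.258 and MEPCE at 0.279, while HEXIM2 (0.544) and LARP7 (0.617) were farthest. All points share the same 12 libraries, so this likeness is a description only.

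Genes that work with the members moved in both directions, beside the 33.1% and 34.4% of all genes called and medians of -0.03 and -0.004. Of 13 partners of 7SK RNA and factors that release P-TEFb, 9 were called in wild-type cells (5 higher, 4 lower) and 8 in knockout cells (5 higher, 3 lower), with medians of 0.06 and 0.10. PPP1CA, a phosphatase subunit, rose by a log2 fold change of 0.45 in both genotypes (edgeR adjusted p = 3.72e-05 and 3.44e-05), and TRIM28, a chromatin corepressor, by 0.65 and 0.56. DDX21, an RNA helicase, fell by 0.34 and by 0.45, and HNRNPA1, which binds 7SK RNA outside the inhibited complex, fell by 0.27 and by 0.25. SRSF2, a splicing factor, rose by 0.43 in knockout cells (edgeR adjusted p = 2.53e-05) and stood at 0.06 (edgeR adjusted p = 0.448) in wild type, but the interaction did not pass (0.37, edgeR adjusted p = 0.102), and in DMSO it was lower in knockout than in wild-type cells, by a log2 fold change of -0.26 (edgeR adjusted p = 0.00709).

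In the super elongation complex, which carries P-TEFb to paused polymerase, 5 of 10 genes were called in wild-type cells (4 higher, 1 lower) and 4 of 10 in knockout cells (3 higher, 1 lower). Both medians were 0.25. ELL2, an elongation factor, rose by 0.41 (edgeR adjusted p = 0.00319) and 0.52 (edgeR adjusted p = 0.000601), and MLLT3, a reader of acetylated histones, by 0.48 and 0.31. The scaffold AFF3 fell by 0.80 and by 0.99 (edgeR adjusted p = 0.0009 and 0.000231), from a low level of 3.25 to 1.87 CPM in wild-type cells.

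Pausing factors and substrates of P-TEFb were called in 1 direction only, with 5 of 8 higher in wild-type and 4 of 8 higher in knockout cells, at medians of 0.31 and 0.21. SUPT6H, an elongation factor and histone chaperone, rose by 0.32 and 0.29 (edgeR adjusted p = 0.00046 and 0.000851), NELFB, a subunit of the pausing complex NELF, by 0.40 and 0.28, and SUPT5H, a subunit of DSIF, by 0.31 and 0.24. POLR2A, the largest subunit of the polymerase, showed the largest fold of the list in wild-type cells, 1.70 (SE 0.46, edgeR adjusted p = 0.0108), but was counted at only 0.298 to 2.97 CPM there. Whether so low a count represents the transcripts of POLR2A was not tested, and without it 4 of 7 genes were called in wild-type cells. Of the 9 other transcription CDKs and cyclins, only CDK8, the kinase of the Mediator module, was called, at 0.24 (edgeR adjusted p = 0.0336) and 0.42 (edgeR adjusted p = 0.000985).

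Bromodomain genes outside the BET family were called more often lower than higher. Of 34 tested, 15 were called in wild-type cells (5 higher, 10 lower) and 19 in knockout cells (6 higher, 13 lower), with medians of -0.09 and -0.12. TRIM24 and the acetyltransferase KAT2B rose by 0.49 (edgeR adjusted p = 1.29e-05) and 0.58 (edgeR adjusted p = 4.35e-05) in wild-type cells and by 0.37 (edgeR adjusted p = 0.000139) and 0.52 (edgeR adjusted p = 0.000123) in knockout cells. TAF1, a subunit of TFIID, fell by 0.44 and by 0.55, and ZMYND8, a chromatin reader, fell by 0.25 and by 0.50. The nuclear body gene SP100 fell by 0.58 and by 0.94 (edgeR adjusted p = 0.000155 and 1.95e-06). Of 6 partners of the extra-terminal domain of BET proteins, 2 were called in wild-type and 3 in knockout cells, among them JMJD6, which was higher in both, by 0.31 and 0.38, and BICRAL, which fell by 0.47 and by 0.49.

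Without knockout JQ1 replicate 3, 33.6% of all genes were called in knockout cells. The counts there were 7 of 13 partners of 7SK RNA (5 higher, 2 lower), 6 of 9 tested genes of the super elongation complex (4 higher, 2 lower) and 3 of 8 pausing factors and substrates (3 higher), where SUPT5H no longer passed (0.18, edgeR adjusted p = 0.0559) and NELFB stood at 0.18 (edgeR adjusted p = 0.0454). For the bromodomain genes outside the BET family they were 18 of 34 (4 higher, 14 lower), and for the partners of the extra-terminal domain 4 of 6 (1 higher, 3 lower). The median of the super elongation complex went from 0.25 over 10 genes to 0.11 over 9. These are unlike sets, as ELL3 (0.93, SE 0.89, with all libraries) was no longer tested. The median of the partners of the extra-terminal domain went from -0.03 to -0.22. PPP1CA, TRIM28, DDX21, HNRNPA1, SRSF2, ELL2, MLLT3, AFF3, SUPT6H, CDK8, TRIM24, KAT2B, TAF1, ZMYND8, SP100, JMJD6 and BICRAL passed in the same direction without this library.

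**Figure D4:**
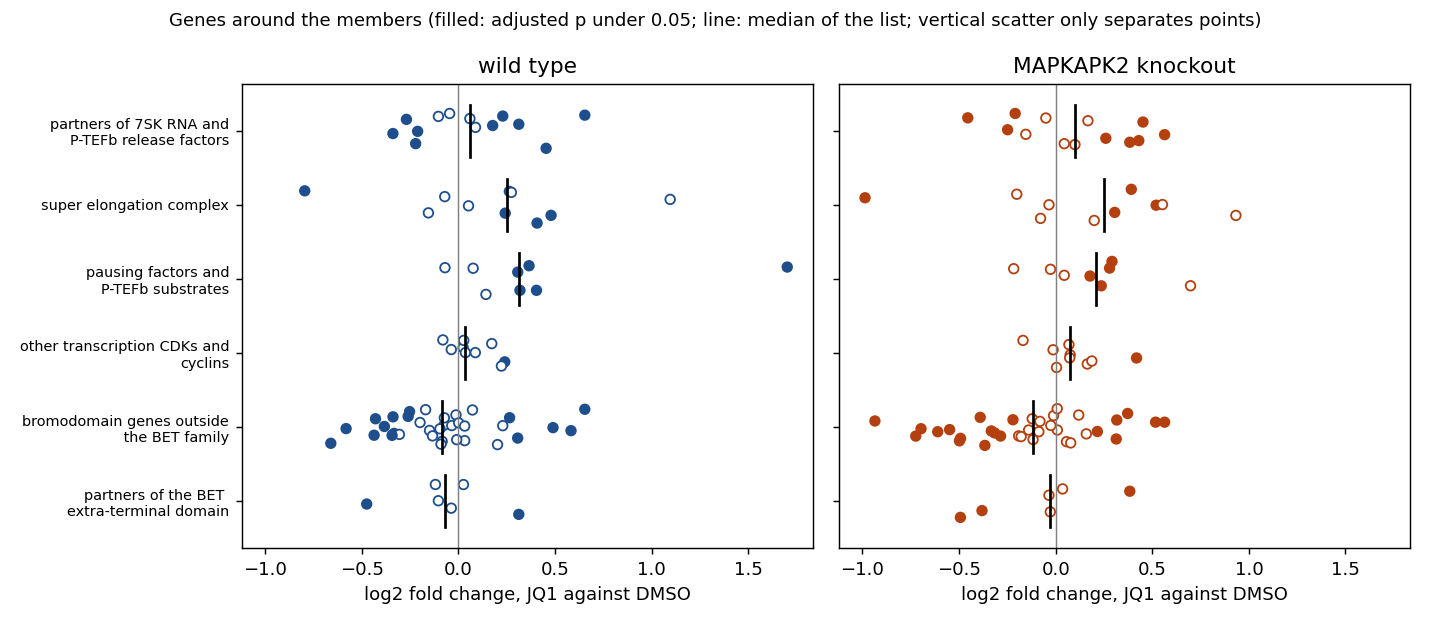
Log2 fold change with JQ1 against DMSO (x axis) of the genes in 6 related lists, in wild-type and knockout cells; each point is a gene, filled where edgeR's adjusted p was under 0.05, and lines are list medians. Called points of the pausing factors lie to the right of 0 only, whereas those of the bromodomain genes spread to both sides.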

How the data were processed

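RNA sequencing libraries of A375 cells (4 groups of 3) were processed by the authors with Trim Galore, cutadapt, FastQC, MultiQC, kallisto and DESeq2 on GRCh38.p10, per the submitters' processing notes. The gene annotation and the use of strand are not given in the sources used here. The deposited table holds estimated counts per gene symbol, made by the authors, and a second deposited table holds their normalized signal. The estimated counts, which the design had taken to be whole counts, were rounded before testing. All 12 columns were matched to samples by name, and the number of columns with no sample was 0.

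Counts were filtered by edgeR's filterByExpr, leaving 21698 genes, scaled by TMM and fitted over all 4 groups with edgeR 4.0.16 (limma 3.58.1, R 4.3.3) by the quasi-likelihood test, with Benjamini-Hochberg adjustment over all tested genes and a threshold of 0.05. The script was tested on simulated data. Libraries held 25316899 to 34594295 counts. Alternatives were DESeq2 1.42.0, library totals, leaving out abundant noncoding RNAs, the authors' factors, limma on the deposited normalized signal (pseudocounts 1 and 0.5), no filter, a replicate block, only the groups compared, a threshold of 0.01 and leaving out each replicate (for lists and ratios, only knockout JQ1 replicate 3, chosen after seeing the data). The members and lists were chosen with earlier results of these data known. Named were the members, RN7SK, MAPKAPK2, up to 3 genes per list and JQ1 contrast by smallest adjusted p, and the 5 genes nearest to HEXIM1. POLR2A, BRDT and the overlapping genes were named after their values were seen. Promoters came from RefSeq (GRCh38.p14) and gene positions from GENCODE 29.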

Additional observations from a re-analysis of the deposited data

How the results depend on the processing

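HEXIM1 and CDK9 stayed past the threshold in both genotypes under all 21 alternatives, at log2 fold changes of 0.66 to 0.82 and 0.66 to 0.83 for HEXIM1 and 0.35 to 0.52 and 0.34 to 0.58 for CDK9. BRD2 stayed called in knockout cells under all 21 and in wild-type cells under 17, and MEPCE under 16 and 15. The HEXIM2 call in knockout cells held under 6. The number of members called with JQ1 in wild-type cells, 4 as reported, was 2 at an adjusted p under 0.01 and 2 to 5 when 1 replicate was left out, with the lowest without wild-type DMSO replicate 2 or JQ1 replicate 1 or 2. In knockout cells, 5 as reported, it was 3 at an adjusted p under 0.01, 3 with only the groups compared, and 3 to 5 when 1 replicate was left out, with the lowest without DMSO replicate 1 or 2 or JQ1 replicate 3. The cause was not tested. Replicate numbers did not pair the libraries (correlation of deviations -0.115 to 0.0786 over 18 same-numbered pairs, 2 of 12 libraries closest to their own number). With the replicate block, 4 members were called in wild-type cells and 5 in knockout cells, where LARP7 (edgeR adjusted p = 0.0377) was called in place of HEXIM2 (edgeR adjusted p = 0.0574), and 0 in the contrasts between genotypes. The added contrast averaging genotypes called 4 members at an adjusted p under 0.01.

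No called value changed sign under any alternative run. Every change of sign was of a value that did not pass as reported. Not all of these were close to 0, as the LARP7 interaction was reported at -0.12 and the knockout JQ1 response of CCNT1 at -0.09. Some alternatives lay farther from 0 than the reported value, such as those of the CCNT1 interaction, reported at 0.04. Over all 21 alternatives, CCNT1 with JQ1 in knockout cells ran from -0.34 to 0.020 and never passed. With library totals, CCNT2 stood at -0.11 in wild-type, -0.063 in knockout and -0.087 in averaged JQ1 contrasts, BRD3 at -0.097 in knockout cells with JQ1, and the genotype difference in DMSO at -0.036 for BRD3 and -0.041 for HEXIM1, with interactions of 0.0046 for HEXIM1 and 0.013 for MEPCE. With the authors' factors CCNT1 differed by 0.18 between genotypes in DMSO, with an interaction of -0.24, and BRD3 averaged 0.011. On the authors' normalized values (limma, either pseudocount) CCNT1 gave 0.18 and -0.26, CDK9 an interaction of -0.0064, and BRD3 an average of 0.0081. HEXIM1 between genotypes with JQ1 stood at 0.0038 with DESeq2 and 0.0027 with the authors' factors, and the CDK9 interaction at -0.00072 without the filter. When 1 replicate was left out, JQ1 values ran from -0.089 to 0.076 (CCNT2, wild type), -0.067 to 0.099 (BRD3, knockout), -0.16 to 0.020 (CCNT1, knockout) and -0.10 to 0.19 (CCNT2, knockout), and averaged values from -0.076 to 0.0065 (BRD3) and -0.043 to 0.11 (CCNT2). Genotype differences in DMSO ran from -0.11 to 0.0086 (CCNT1), -0.0054 to 0.062 (BRD3) and -0.014 to 0.036 (HEXIM1). With JQ1 they ran from -0.080 to 0.047 (HEXIM1), -0.12 to 0.25 (LARP7), -0.16 to 0.0059 (MEPCE), -0.068 to 0.18 (CDK9) and -0.097 to 0.087 (CCNT1). Interactions ran from -0.15 to 0.099 (CDK9), -0.10 to 0.068 (MEPCE), -0.036 to 0.15 (CCNT1), -0.085 to 0.041 (HEXIM1), -0.12 to 0.17 (CCNT2), -0.29 to 0.081 (LARP7) and -0.16 to 0.024 (HEXIM2). HEXIM2 had the fewest counts of the members, a mean of 198.7 a library.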
